A study of Mus musculus with 4 samples.

Results

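The genes described here encode 3 families of phase II conjugation enzymes in mouse liver: the UDP-glucuronosyltransferases (UGT), the glutathione transferases (GST) and the cytosolic sulfotransferases (SULT). Members were all probe sets with a single gene symbol in the platform annotation whose symbol belongs to the Ugt1, Ugt2, Ugt3, Ugt8, Gst or Sult series. Gstm3 was left out by the selection rule. This gave 41 genes (10 UGT, 16 GST and 15 SULT) of 18820 measured, each with 1 probe set.

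Phase II enzymes attach a polar group to drugs, hormones, bile acids and reactive metabolites so that these can be excreted. UGTs transfer glucuronic acid from UDP-glucuronate, GSTs transfer glutathione to electrophiles, and SULTs transfer sulfate from the donor PAPS. The liver is the main site of all these reactions, and the transcription factors NRF2, CAR, PXR and the aryl hydrocarbon receptor are known regulators of many of the genes.

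The study infused short-chain fatty acids into the cecum of male C57Bl/6J mice aged 16 to 17 weeks and profiled liver RNA after 6 h, on 1 array per group. The tested pools came from mice given 0.3 M sodium [1-13C]acetate (6 mice), sodium [2-13C]propionate (6 mice) or sodium [2,4-13C2]butyrate (4 mice), and the control pool from 6 mice given phosphate-buffered saline. All mice ate a semi-synthetic diet with palm oil for 6 weeks, carried a permanent cecal catheter, were fasted on the morning of the experiment and were infused at 0.2 ml/h, which supplied 2.4 mmol/h/kg of acid to the acid groups and none to the control group. RNA was pooled at 500 ng per mouse, so each group is a single pool, no spread between mice or arrays can be estimated, and no difference below has a test.

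Values are log2 expression levels, and a ratio is the difference between the log2 levels of 2 pools. The levels of different probe sets are not on a common scale, so ratios are taken only between pools. Across genes, levels served to set the floor, to choose members to show and in sums of marker levels. A level floor of 5.55, the median of all genes' mean levels, was used to set apart low values. No background level was measured. Of the 41 members, 29 lay at or above the floor in all 4 pools and 12 lay below it in all 4 pools, so no member passed the floor only through a pool in which it was high. The 29 were 9 of 10 UGTs, 14 of 16 GSTs and 6 of 15 SULTs.

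Members were counted when 2 pools differed 1.5-fold or more, which is 0.58 in log2 units. With acetate, 1 of the 29 members was at least 1.5-fold above control and 0 were at least 1.5-fold below, where 0.627% and 0.51% of the 9410 genes at or above the floor were so. With propionate, 0 members passed in either direction, against 0.701% of genes higher and 0.404% lower. With butyrate, 0 members passed in either direction, against 0.755% of genes higher and 0.361% lower. These shares would place less than 1 member past the limit, so the counts lie near the background.

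Small ratios leaned upward with acetate. Of the 29 members, 21 lay above control with acetate, 17 with propionate and 14 with butyrate, while of all 9410 genes 46.2%, 39.2% and 48.7% lay above control. The median ratio of the members was 0.066 with acetate, 0.0098 with propionate and -0.0054 with butyrate, beside medians of -0.011, -0.034 and -0.0036 for all genes at or above the floor. The 3 comparisons share the control pool. Across the 4 pools, 18 of the 29 members (62.1%) stayed within 1.2-fold, as did 72.6% of all genes at or above the floor.

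**Figure D1:**
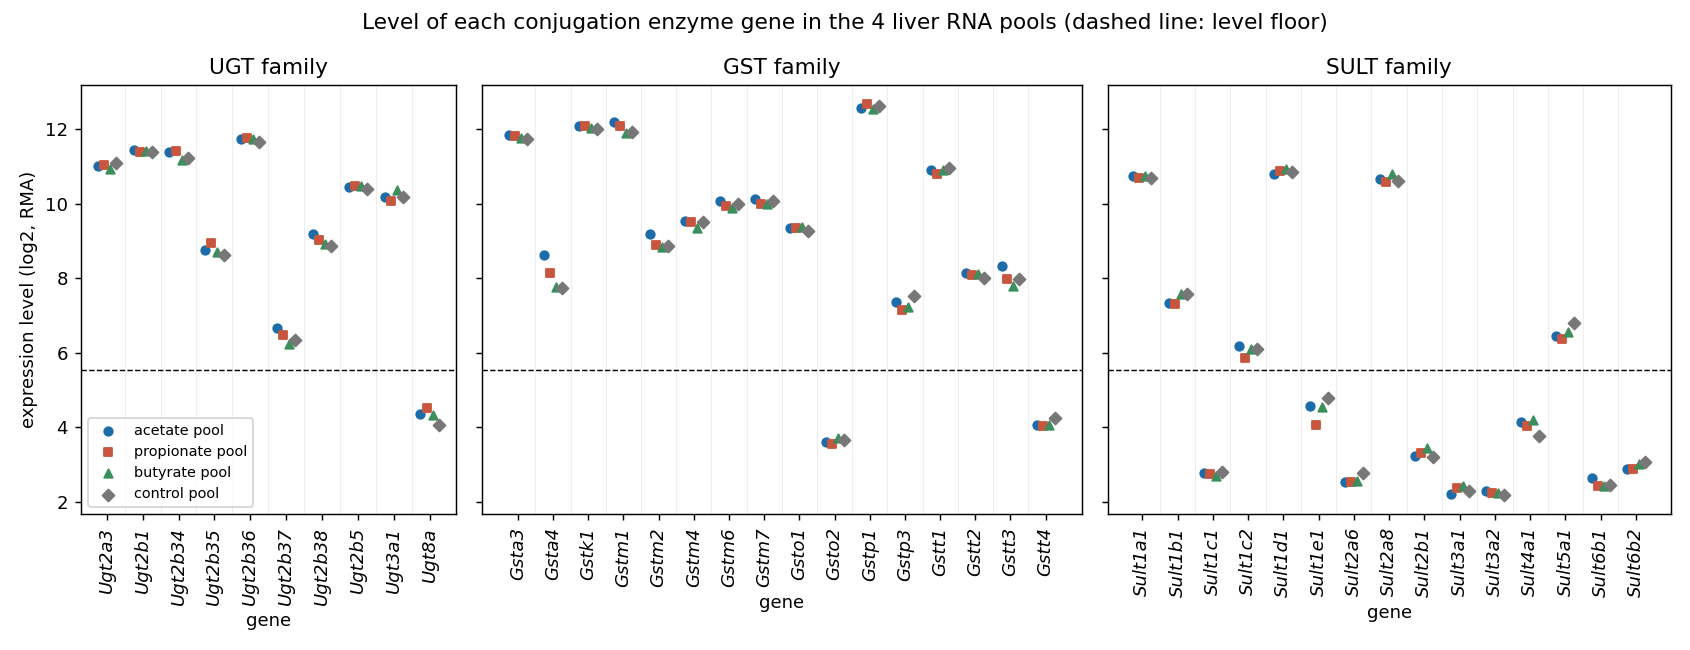
Log2 level of each of the 41 genes in the acetate, propionate, butyrate and control pools, 1 point per pool, with the level floor of 5.55 as a dashed line. For most genes the 4 points nearly coincide; Gsta4 is spread most among the genes above the floor, and 9 of the 15 SULT genes lie below it.

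Gsta4, the alpha-class glutathione transferase that clears 4-hydroxynonenal and related aldehydes of lipid peroxidation, was the member past 1.5-fold with acetate. Its log2 level was 8.62 in the acetate pool, 8.15 in the propionate pool and 7.76 in the butyrate pool, against 7.76 in the control pool. The acetate pool was thus the highest, the propionate pool lay between, and the butyrate pool matched control. The ratio to control was 0.86 with acetate (1.82-fold, rank 21 of 9410 genes from the highest), 0.39 with propionate (1.31-fold, rank 177) and 0.0020 with butyrate. The other alpha-class member, Gsta3, known in mice for conjugating aflatoxin epoxide, ran in the same order within a much narrower range, at 11.86, 11.82 and 11.77 in the acetate, propionate and butyrate pools and 11.75 in control.

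The mu class, which conjugates a broad range of electrophiles, had 5 members. All 5 lay above control with acetate (0.050 to 0.30), 3 did so with propionate (-0.063 to 0.18) and 0 with butyrate (-0.15 to -0.0054). Gstm1 measured 12.21 with acetate, 12.10 with propionate and 11.92 with butyrate, against 11.92 in control. Gstm2 measured 9.18, 8.89 and 8.85 in the 3 acid pools, against 8.88 in control, so the acetate pool alone stood apart from the rest. The ratios of Gstm4, Gstm6 and Gstm7 to control spanned -0.15 to 0.079. Gstm7, Gstm6, Gstm2, Gstm1 and Gstm4 lie in that order in 1 cluster on chromosome 3, with Gstm3 among them, in the RefSeq annotation (GRCm38.p6). These paralogs are similar in sequence, and short probes can cross-hybridise between them. For Gstm3 itself, the gene left out, the levels were 11.25, 10.86 and 9.72 with acetate, propionate and butyrate and 9.95 in control.

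Among the theta-class genes, Gstt3 had the widest range. It measured 8.34 with acetate, 7.99 with propionate and 7.80 with butyrate, against 7.98 in control, a ratio of 0.36 with acetate. Gstt1, which is known for conjugating halogenated solvents, and Gstt2 stayed between -0.16 and 0.12 of control. In the pi class, Gstp1, an enzyme that is male-biased in mouse liver, measured 12.59, 12.67 and 12.56 in the acid pools and 12.63 in control. The 2 probe sets shared by Gstp1 and Gstp2, which are outside the members, lay above control with all 3 acids (0.068 to 0.13). Gstp3, the neighbour of Gstp1, lay below control with all 3 acids, by -0.16, -0.38 and -0.28. Gstk1, a mitochondrial and peroxisomal transferase, measured 12.09, 12.10 and 12.03 with the acids and 12.02 in control. Gsto1, an omega-class thioltransferase, was within 0.12 of control in every acid pool. Gsto2 and Gstt4 were below the floor, with ratios to control from -0.21 to 0.048.

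**Figure D2:**
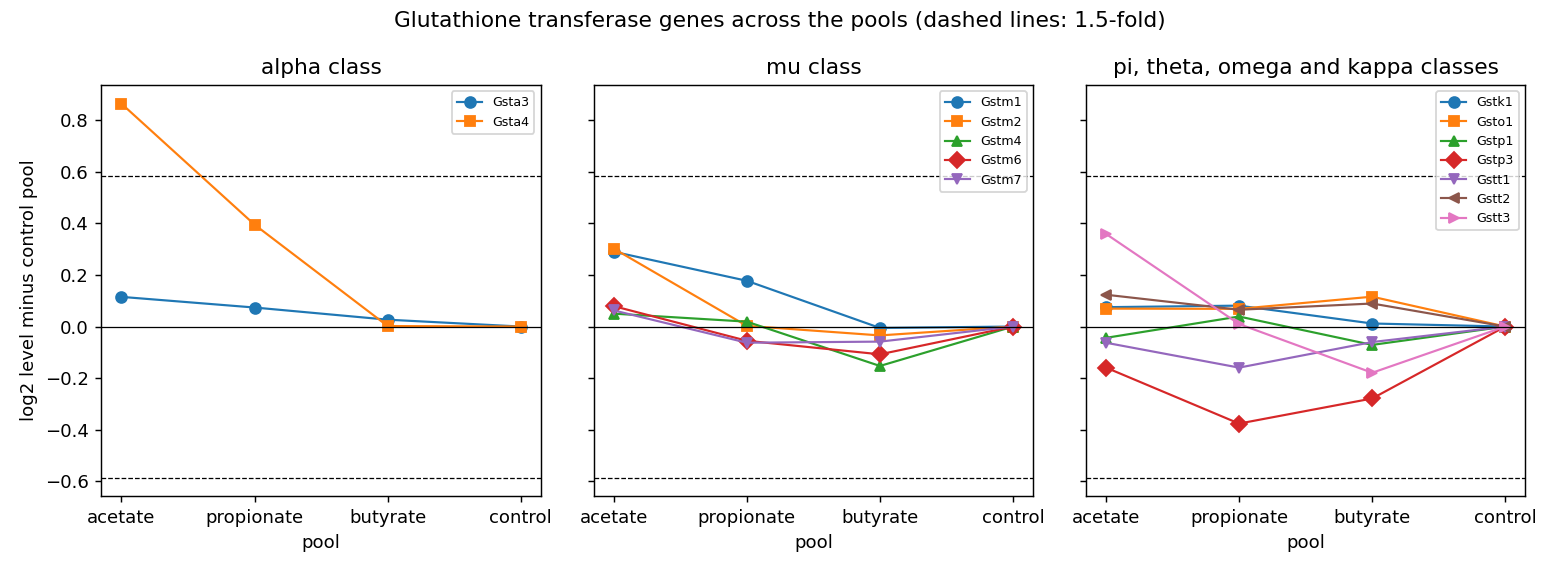
Log2 level minus the control pool (vertical axis) of the 14 glutathione transferase genes at or above the floor in the acetate, propionate, butyrate and control pools; lines join the points of 1 gene and dashed lines mark 1.5-fold. Gsta4 with acetate is the point above the upper limit, and all 5 mu-class genes lie above 0 with acetate and below 0 with butyrate.

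The promoter windows were read for letters that known regulators of these genes bind. RefSeq windows (GRCm38.p6) of 300 bases, from 250 bases before to 50 bases after a gene start, were held for 38 of the 41 members (48 windows, since some genes have several starts). Windows for Gsta4, Gstt2 and Sult4a1 were not used here. The core of the antioxidant response element, the NRF2 site, was searched as TGACNNNGC on both strands. It was found in 2 of the 48 member windows (4.17%), those of Gsta3 and of Gstm7, and in 12.4% of all 32851 windows. Both windows are shown because they are the GST windows with the core, which is in capitals.
Gsta3, chr1:21240335-21240634, + strand, GRCm38.p6: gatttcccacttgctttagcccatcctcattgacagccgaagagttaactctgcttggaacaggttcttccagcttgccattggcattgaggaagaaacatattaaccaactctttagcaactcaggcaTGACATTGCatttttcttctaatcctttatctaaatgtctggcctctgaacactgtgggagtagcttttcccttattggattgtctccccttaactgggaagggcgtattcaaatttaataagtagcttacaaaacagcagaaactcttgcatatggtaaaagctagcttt
Gstm7, chr3:107931565-107931864, - strand, GRCm38.p6: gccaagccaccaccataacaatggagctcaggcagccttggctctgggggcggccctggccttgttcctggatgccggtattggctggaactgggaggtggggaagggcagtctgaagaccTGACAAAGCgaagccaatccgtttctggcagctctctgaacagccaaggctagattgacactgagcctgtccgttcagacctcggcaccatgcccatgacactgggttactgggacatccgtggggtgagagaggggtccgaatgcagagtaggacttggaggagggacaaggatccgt
The ratios to control of Gsta3 and Gstm7 with acetate were 0.12 and 0.063, inside the range of the other 12 GSTs at or above the floor (-0.16 to 0.86). A match is a description of the letters and not of binding.

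The UGTs differed less between pools than the GSTs did at their extremes. Of the 9 members at or above the floor, 7 lay above control with acetate, 6 with propionate and 6 with butyrate, with median ratios of 0.078, 0.11 and 0.045, and 0 passed 1.5-fold with any acid. Ugt2b36 measured 11.73, 11.78 and 11.75 in the acetate, propionate and butyrate pools, against 11.67 in control. Ugt2b1 measured 11.46, 11.38 and 11.42 in the acid pools and 11.38 in control. These Ugt2b enzymes conjugate steroids, bile acids and drugs, and the 4 pools were nearly level for both.

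Ugt2b34 measured 11.39 with acetate and 11.41 with propionate, against 11.18 with butyrate and 11.23 in control, so the acetate and propionate pools lay above the remaining 2. Ugt2a3, whose human counterpart glucuronidates bile acids, measured 11.01, 11.06 and 10.94 in the acid pools and 11.10 in control, below control in each. The widest UGT ratios to control were those of Ugt2b38 and Ugt2b37 with acetate (0.32 and 0.31) and of Ugt2b35 with propionate (0.32). Ugt2b38 measured 9.21, 9.03 and 8.93 in the acid pools and 8.88 in control, and Ugt2b37 measured 6.66, 6.48 and 6.25 in the acid pools and 6.34 in control. For both, acetate was the highest and propionate the next. Ugt2b5 stayed within 0.095 of control with all 3 acids.

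Ugt3a1, whose human counterpart uses UDP-N-acetylglucosamine as sugar donor, ran the other way, with 10.18 and 10.07 after acetate and propionate, 10.38 after butyrate and 10.19 in control. Ugt8a, the ceramide galactosyltransferase of myelin, was below the floor at 4.35, 4.53 and 4.33 with the acids and 4.05 in control. Its ratio of 0.47 with propionate was the member value just outside the 1.5-fold limit in that comparison.

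Ugt2b36, Ugt2b5, Ugt2b37 and Ugt2b38 lie in 1 cluster on chromosome 5 in the RefSeq annotation, and their start regions resemble one another. Of the 10 members with the nuclear receptor core AGGTCA in a window, on either strand, 5 were Ugt2b genes. The core was in 20.8% of the 48 member windows and 16.3% of all windows. In these 4 genes it lies 22 to 39 bases before the start, and 100 bases around it are shown, with the core in capitals, because they show how similar the start regions of these neighbouring genes are.
Ugt2b37, chr5:87254775-87254874, - strand, GRCm38.p6: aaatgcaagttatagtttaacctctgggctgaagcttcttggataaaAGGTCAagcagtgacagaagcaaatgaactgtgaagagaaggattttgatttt
Ugt2b38, chr5:87424176-87424275, - strand, GRCm38.p6: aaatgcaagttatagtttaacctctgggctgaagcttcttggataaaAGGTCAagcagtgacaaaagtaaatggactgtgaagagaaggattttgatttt
Ugt2b5, chr5:87140310-87140409, - strand, GRCm38.p6: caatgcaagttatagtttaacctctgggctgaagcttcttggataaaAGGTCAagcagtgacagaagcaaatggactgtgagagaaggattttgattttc
Ugt2b36, chr5:87092528-87092627, - strand, GRCm38.p6: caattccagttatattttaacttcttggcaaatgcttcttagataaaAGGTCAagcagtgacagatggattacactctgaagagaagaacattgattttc
Over the first 75 bases as printed, compared without gaps, Ugt2b38 shared 72 bases with Ugt2b37, Ugt2b5 shared 73 and Ugt2b36 shared 58. The ratios of Ugt2b37, Ugt2b38, Ugt2b5 and Ugt2b36 to control were 0.31, 0.32, 0.056 and 0.066 with acetate. With propionate they were 0.14, 0.15, 0.084 and 0.11, and with butyrate -0.098, 0.045, 0.095 and 0.079. The part of these letters in the ratios was not tested. The aryl hydrocarbon receptor core GCGTG was in 18.8% of member windows and 32.4% of all windows, and the AP-1 site TGACTCA, which a TGACNNNGC match can contain, was in 10.4% and 5.20%.

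**Figure D3:**
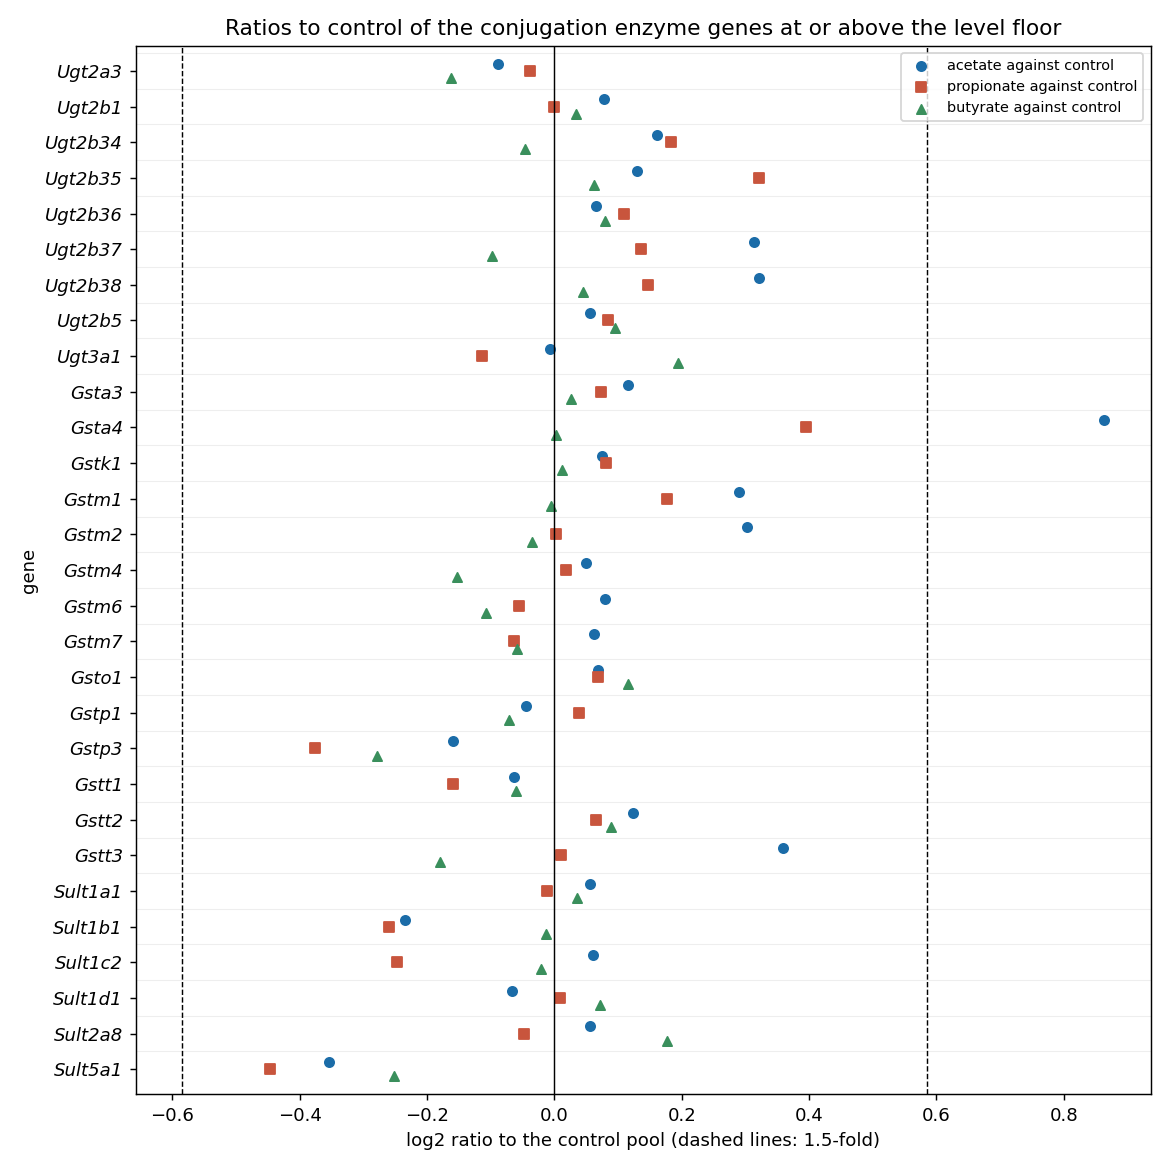
Log2 ratio to the control pool of the 29 genes at or above the floor, by family (UGT, GST and SULT from top to bottom), with 1 point each for acetate, propionate and butyrate; dashed lines mark 1.5-fold. The acetate point of Gsta4 at 0.86 is the only one past a limit, and Sult5a1 at -0.45 with propionate is the lowest.

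The SULTs at or above the floor, 6 of 15, had 0 ratios past 1.5-fold against control. Sult1d1, which sulfates catecholamines in mice, measured 10.80, 10.87 and 10.94 in the acetate, propionate and butyrate pools and 10.87 in control. Sult1a1, the phenol sulfotransferase, measured 10.76, 10.70 and 10.74 in the acid pools and 10.71 in control. Both were level across the pools.

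Sult2a8, a bile acid sulfotransferase of mouse liver, measured 10.68, 10.58 and 10.80 with the acids, against 10.62 in control, with the butyrate pool highest. Sult1b1, which sulfates thyroid hormones, measured 7.35 and 7.32 with acetate and propionate, against 7.57 with butyrate and 7.58 in control, so the acetate and propionate pools lay below the remaining 2. Sult5a1 was below control in all 3 acid pools, at 6.46, 6.37 and 6.56, against 6.81 in control, and its ratio of -0.45 with propionate was the lowest of any member at or above the floor. Sult1c2 measured 6.18, 5.87 and 6.10 in the acid pools and 6.12 in control.

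The 9 SULTs below the floor gave ratios to control from -0.74 to 0.42. Sult1e1, the estrogen sulfotransferase, measured 4.58 with acetate, 4.06 with propionate and 4.56 with butyrate, against 4.80 in control. Its ratio of -0.74 with propionate (1.67-fold lower) was the 1 ratio past 1.5-fold among the 12 members below the floor. That ratio rests on low values whose distance from background was not measured. Of all 18820 genes, with no floor, 1.19% differed 1.5-fold or more from control in either direction with acetate, 1.26% with propionate and 1.34% with butyrate. Sult4a1, a brain sulfotransferase, came next at 0.36, 0.27 and 0.42 above control, with levels of 4.14, 4.04 and 4.19 in the acid pools and 3.77 in control. The others, among them the female-predominant Sult3a1, the cholesterol sulfotransferase Sult2b1 and Sult2a6, had ratios from -0.24 to 0.25.

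Acetate, propionate and butyrate differ in the length of the carbon chain and were infused with matched dose and duration, so the acid pools can be set against one another in 3 pairs, without a test. Against acetate, propionate had 0 members past 1.5-fold, where 0.414% of genes were higher and 0.138% lower. Gsta4 was the furthest apart of the 29 at -0.47. Butyrate against acetate gave 0 members higher and 1 lower, beside 1.05% and 0.85% of genes. That member was Gsta4 at -0.86 (1.82-fold lower), and Gstt3 at -0.54 lay just short of the limit. Butyrate against propionate gave 0 members in either direction, beside 0.351% of genes higher and 0.606% lower, with Gsta4 at -0.39 and Ugt3a1 at 0.31 as the extremes.

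The family medians between acids were as follows, with no test between families. Of the 14 GSTs at or above the floor, 12 were lower with propionate than with acetate and 12 lower with butyrate than with acetate (medians -0.10 and -0.12, and -0.050 for butyrate against propionate), while 41.7% and 52.4% of all genes were higher with propionate and with butyrate than with acetate. Of the 6 SULTs at or above the floor, 5 were lower with propionate than with acetate (median -0.080) and 4 were higher with butyrate than with acetate (median 0.11). All 6 were higher with butyrate than with propionate, by 0.047 to 0.25 (median 0.21), where 59.6% of all genes were and the median of all genes was 0.034. The 9 UGTs had medians of 0.022 for propionate against acetate, -0.068 for butyrate against acetate and -0.10 for butyrate against propionate. The order acetate highest, propionate next and butyrate lowest was held by 9 of the 29 members (7 GSTs, namely Gsta3, Gsta4, Gstm1, Gstm2, Gstm4, Gstm6 and Gstt3, with Ugt2b37 and Ugt2b38, and 0 of the 6 SULTs) and by 18.7% of all genes at or above the floor. The reverse order was held by 2 members, Sult1d1 and Ugt2b5, and by 20.0% of genes.

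Genes that supply or support conjugation were listed as 9 groups of 124 different genes, of which 110 were measured and 96 lay at or above the floor. Among those 96, 0 passed 1.5-fold against control in either direction with acetate, 1 was higher and 1 lower with propionate, and 0 passed with butyrate. The 2 genes past the limit with propionate are near what the shares of all genes (0.701% higher and 0.404% lower) would give. Among the supporting genes below the floor by mean level, Slc7a11 and Abcb1a passed 1.5-fold against control. Their ratios were 0.68, 1.05 and -0.096, and 0.67, 0.12 and 0.47, with acetate, propionate and butyrate. Of all 18820 genes, 1.19% differed so in either direction with acetate and 1.26% with propionate. The median ratios of the 96 were 0.0051, -0.015 and 0.0099, close to those of all genes. Csad, a taurine synthesis enzyme that draws on the same cysteine sulfinate as sulfate formation, measured 8.21, 8.61 and 7.89 in the acid pools and 7.98 in control. Slc26a2, a sulfate transporter, measured 5.58, 5.48 and 6.09 in the acid pools and 6.09 in control, and it counts as above the floor by its mean, with the propionate value below it. Papss1, a PAPS synthase, had a ratio of -0.34 with propionate. Between acids, Gclc of glutathione synthesis was lower with butyrate than with acetate (-0.67). Csad was lower (-0.73) and Slc26a2 higher (0.61) with butyrate than with propionate. No other of the 96 passed in those 2 pairs. Of all genes at or above the floor, 0.85% were lower with butyrate than with acetate. For butyrate against propionate, 0.351% were higher and 0.606% lower, so these counts lie near the shares of all genes.

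Donor supply showed its own small ratios. Ugdh, which makes UDP-glucuronate, measured 10.65, 10.59 and 10.16 with the acids and 10.32 in control. Slc35b1, a member of the nucleotide sugar transporter family, had ratios of -0.24, -0.43 and -0.025 to control. In glutathione synthesis, Gclc, the catalytic subunit of its rate-limiting enzyme, measured 10.79, 10.70 and 10.12 with the acids and 10.21 in control, just under the limit with acetate (0.584, where the limit is 0.585). Gclm, the modifier subunit, lay above control by 0.17, 0.20 and 0.19, and Chac1, which degrades glutathione, had ratios of -0.26, -0.22 and 0.10. Of 8 genes for membrane-bound transferases and related proteins, 3 were at or above the floor. Of these, Mgst3 had ratios of 0.17, -0.076 and -0.27, and the related gene Clic4 of 0.24, 0.18 and -0.082.

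Other conjugation and accessory enzymes were close to control. The 15 acetyl, methyl and glycine conjugation genes at or above the floor spanned -0.26 (Gamt, creatine synthesis, with butyrate) to 0.20 (As3mt, arsenic methylation, with butyrate), and the histamine methyltransferase Hnmt had ratios of 0.058, -0.21 and -0.22. The 8 genes that remove glucuronide or sulfate spanned -0.18 (Arsg, with acetate) to 0.20 (Galns, with butyrate). Among hydrolases and reductases, the epoxide hydrolase Ephx1 had ratios of 0.34, 0.27 and 0.07 to control and the carboxylesterase Ces2a -0.30, -0.40 and -0.25. The conjugate carrier Abcc4 had ratios of 0.23, 0.23 and 0.17, and Abcc3 of 0.14, 0.0021 and 0.10. Of 13 regulators, the NRF2 gene Nfe2l2 had ratios of 0.29, 0.21 and 0.19 and Ahr 0.17, 0.33 and 0.28, and the rest lay between -0.16 and 0.22.

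**Figure D4:**
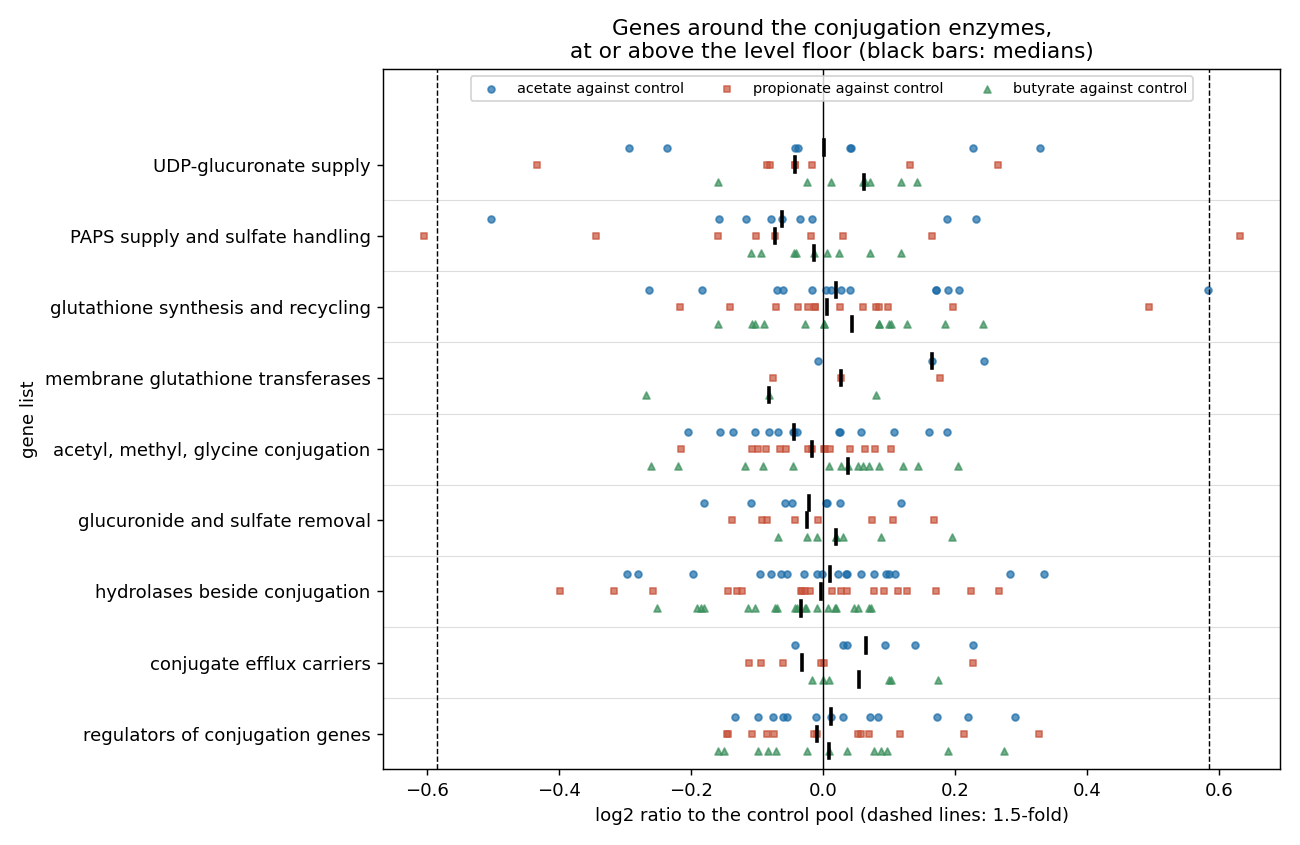
Log2 ratio to the control pool of the 96 supporting genes at or above the floor, in 9 lists, with 1 point per gene and acid and a black bar for each median; dashed lines mark 1.5-fold. Csad and Slc26a2 with propionate are the 2 points past the limits, and the medians lie near 0.

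The 12 measured hepatocyte markers were at or above the floor and had median ratios of 0.0031, 0.020 and 0.012 to control. All measured Kupffer cell (14), stellate cell and fibroblast (11) and pancreatic acinar (10) markers also lay at or above it. Passing the floor therefore does not identify the tissue. Markers of other tissues differed between the pools. All 10 pancreatic acinar markers were below control with each acid, with summed linear levels of 6887, 7745 and 9181 in the acetate, propionate and butyrate pools and 11751 in control. Stellate cell and fibroblast markers summed to 5583, 5338 and 4906 with the acids and 4550 in control, with 10, 10 and 8 of 11 above control, in the same order of pools as Gsta4. Intestinal markers summed to 2461, 2621 and 3755 with the acids and 2357 in control, and muscle markers to 1699, 2000 and 363 with the acids and 1761 in control. Kupffer cell markers summed to 7408, 8991 and 10504 with the acids and 7345 in control, with 6, 12 and 14 of 14 above control. Neutrophil and monocyte markers summed to 6367, 6570 and 7994 with the acids and 7447 in control, with 1, 4 and 10 of 10 above control. Only 3 of these 10 were at or above the floor. Most of each sum came from Lcn2, at 12.59, 12.62 and 12.81 with the acids and 12.80 in control. All the sums given here weigh most the probe sets of highest level. Of the 8 periportal hepatocyte markers measured, 5 were above control with each acid (medians 0.092, 0.070 and 0.010), though not the same 5 throughout. Aldh1b1 (0.96, 0.70 and 0.16), Hsd17b13 (0.16, 0.10 and 0.015) and Etnppl (0.55, 0.40 and 0.055) ran in the same order of pools as Gsta4. Cdh1 (0.37, 0.26 and -0.15) and Cyp2f2 (0.026, -0.011 and -0.044) held that order among the acids only. Hal (-0.13, -0.074 and 0.058), Pck1 (-0.020, 0.036 and 0.0057) and Sox9 (-0.010, -0.20 and -0.043) did not. The order was not particular to periportal markers. The perivenous marker Aldh3a2 (0.50, 0.34 and 0.12) held it, and the hepatocyte marker Cyp3a11 (0.35, 0.21 and -0.28) held it among the acids. Perivenous markers had medians of -0.041, -0.062 and 0.030, cholangiocyte markers of 0.14, -0.25 and 0.10, and adipocyte markers of 0.015, -0.18 and -0.27. These medians cover all measured markers, of which only 3 of 7 cholangiocyte and 3 of 7 adipocyte markers were at or above the floor. The part of these markers in the ratios of the conjugation genes was not tested. In pooled tissue RNA, fewer cells of a type and less RNA per cell cannot be told apart.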

How the data were processed

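Liver RNA pools of 4 infusion groups (22 mice) were hybridised to 1 array each. The deposited values are log2 expression per probe set, and RMA is named in the submitters' processing notes, with version and settings not given in the sources used here. RMA makes the arrays' distributions alike (medians 5.11 to 5.12), so a shift of all genes would not be visible.

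Of 35556 probe sets, 21218 had 1 symbol in GEO's platform annotation, 1881 several and 12457 none. Probe sets of 1 symbol were averaged into 18820 genes. All 41 members matched RefSeq by Entrez ID. Ratios were computed in Python 3.11.15 (pandas 2.3.3) and checked on simulated data. With 1 array per group there is no p-value or standard error, and the number of arrays limits the precision. The alternatives were cyclic loess (limma 3.58.1), another choice of probe set, no floor, and limits of 1.3-fold and 2-fold. Also used were the mean of the other 3 pools as comparator and a background without some of the marker lists. Centring on the median gene was added after seeing the data.

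Values by pool were given for members at least 1.5-fold from control, the 4 members of each family with the highest mean level, those nearest the limit, and, chosen after their values were seen, members at the extremes of a family. Of each supporting list, genes among those with the largest ratios at or above the floor were named. Members, lists and motifs were chosen with earlier results of these data known.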

Additional observations from a re-analysis of the deposited data

Results flagged for a closer look

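Signals outside the members were seen in probe sets that the annotation assigns to several genes. Of 15 such probe sets that name a conjugation enzyme, 4 are assigned jointly to Gsta1, Gsta2 and 1 or 2 predicted genes, so no single gene can be named for them. They measured 8.77 to 9.59 with acetate, 7.87 to 8.63 with propionate and 5.89 to 6.35 with butyrate, against 5.85 to 6.34 in control. The ratios to control were 3.31, 3.25, 2.90 and 2.92 with acetate (7.47-fold to 9.91-fold) and 2.35, 2.26, 1.97 and 2.01 with propionate (3.92-fold to 5.12-fold). With butyrate they lay between -0.036 and 0.076. These were the only ones of the 15 at least 1.5-fold from control, and in each the acetate pool was the highest and the propionate pool the next, as for Gsta4. The 4 probe sets target near-identical genes and are not independent measurements.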

How the results depend on the processing

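Cyclic loess left every count, median and named ratio within the limits set for a move. These limits were 1.5 times for counts, 0.05 for medians and, for single genes, the SD of sensory receptor genes (0.16 to 0.18). Another choice of probe set and centring on the median gene also moved nothing, but neither could readily do so. Each member has 1 probe set, and centring subtracted at most 0.034. A background without the muscle, pancreatic, intestinal, adipocyte, neutrophil and monocyte, and Kupffer cell markers left the counts and the medians over all members in place. The hepatocyte, periportal, perivenous, cholangiocyte and stellate cell markers stayed in that background. It leaves out no member, so it could act on the members only through the floor. At 1.3-fold, 1 of the 29 members was higher and 1 lower with propionate than in control (2.13% and 1.90% of all genes at or above the floor). At that limit 1 was lower with propionate than with acetate (0.988% of genes), 3 were lower with butyrate than with acetate (2.60%) and 1 was lower with butyrate than with propionate (1.90%). At 2-fold, 0 members were higher with acetate than in control (0.149% of genes) and 0 lower with butyrate than with acetate (0.266%). Without the floor, 1 member (Sult1e1) was lower with propionate than in control, and the SULT medians became -0.047 for propionate against control, 0.057 for butyrate against acetate and 0.14 for butyrate against propionate. With the average of the other 3 pools, acids included, as comparator, the UGT medians were 0.0028 with acetate, 0.046 with propionate and -0.088 with butyrate, and the SULT median was 0.066 with butyrate. With that comparator 10 ratios of named members moved and 41 did not. Those that moved included Gsta4, at 0.11 with propionate and -0.42 with butyrate. No paired analysis was possible because each group is 1 pooled array, and for the same reason no replicate could be left out.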

Other observations

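The remaining 11 probe sets with several symbols stayed under 1.5-fold of control with every acid. The probe set shared by 8 Ugt1a genes, which encode the bilirubin- and phenol-conjugating enzymes, measured 10.68, 10.66 and 10.72 with acetate, propionate and butyrate and 10.70 in control. The probe set shared by Gstz1, a tyrosine breakdown enzyme, and Pomt2 measured 11.96, 11.96 and 11.97 with the acids and 11.96 in control. A probe set shared by Sult2a1 and Sult2a2, steroid sulfotransferases, was below the floor, with 2.90, 3.41 and 2.68 in the acid pools and 3.24 in control.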
